A study of Mus musculus with 16 samples.

Results

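The Rab GTPases are a family of small GTP-binding proteins, and all of their protein-coding genes in the count table were described here with Rab26 as the lead member. A gene was a member when its mouse symbol was Rab followed by a number and at most 2 letters, and genes of Rab interactors such as Rab3ip were left out. The rule found 63 names. Of these, 2 were left out as not protein-coding and 2 as interactors, which gave 59 members among the 53801 genes of the table and its 21967 protein-coding genes. Expression was measured by RNA-seq of whole cortex and striatum of C57BL6/J-129sv mice at the age of 10 days, in 16 libraries from 9 mice. Control mice (Trrap Fl/+; Camk2-Cre tg) carried 1 floxed Trrap allele, and Trrap-FBΔ mice (Trrap Fl/Fl; Camk2-Cre tg) had both alleles floxed, so that both groups carried Camk2-Cre and the controls could themselves lose 1 allele. Trrap encodes the scaffold subunit shared by several histone acetyltransferase complexes. Camk2-Cre drives the deletion in glutamatergic, pyramidal-type neurons of the forebrain, while the RNA came from all cells of the tissue, including glia, vessels and neurons in which the transgene is not active.

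Each tissue had 4 control and 4 Trrap-FBΔ libraries. Mice 55, 58, 63 and 64 gave the control cortices, mice 58, 63, 64 and 65 the control striata, and mice 57, 59, 60 and 61 both tissues of the Trrap-FBΔ group, and values are listed in this order throughout. Every mouse was a separate animal, and 7 of the 9 gave both tissues. The Trrap-FBΔ libraries came from 3 females and 1 male in each tissue, the control cortices from 2 females and 2 males, and the control striata from 1 female and 3 males. Values per library are CPM, the counts scaled to a common library size, and levels of different genes were compared only per length, as RPKM, the CPM divided by the length of the exons in kilobases.

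Rab proteins switch between a GTP-bound form on membranes and a GDP-bound form in the cytosol, and each marks particular vesicles or organelles and recruits effectors that move, tether and fuse them. Exchange factors load GTP, GTPase-activating proteins end the active state, escort proteins and a prenyltransferase attach the lipid anchor, and GDP dissociation inhibitors take the inactive protein off the membrane. In neurons, Rab proteins are known for the cycle of synaptic vesicles, for axonal and dendritic transport and for endosomal and autophagic sorting. Rab26 binds synaptic vesicles, clusters them and directs them to preautophagosomal structures through Atg16l1.

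Between 28743866 and 48761429 reads were counted per library. A gene was taken as differentially expressed (a DEG) at a Benjamini-Hochberg adjusted p under 0.05 in edgeR's quasi-likelihood test. Trrap had 173, 156, 136 and 147 CPM in control and 121, 137, 135 and 146 CPM in Trrap-FBΔ cortices, and 151, 140, 150.1 and 142 CPM in control and 148, 135, 144 and 138 CPM in Trrap-FBΔ striata. It was not a DEG, since its mean was 153 ± 15.6 CPM in the control and 135 ± 10.3 CPM in the Trrap-FBΔ cortex (SD, n = 4; edgeR adjusted p = 0.0826), and 146 ± 5.73 and 141 ± 5.88 CPM in the striatum (edgeR adjusted p = 0.519), with overlapping groups in both tissues. These counts cover the whole gene and so do not show the deleted part alone, and the groups therefore rest on the labels. The 10 markers of striatal projection neurons did not set the libraries labelled striatum apart, since 1 was higher and 1 lower in control striatum than in control cortex. Their summed level was 407, 952, 1028 and 446 CPM in the control cortices and 323, 693, 1533 and 658 CPM in the control striata, while that of 7 excitatory neuron markers was 3408 to 4169 CPM in control cortex and 1336 to 1937 CPM in control striatum. In the striatal projection neuron markers, the control cortices of mice 58 and 63 had the highest sums, and those of mice 55 and 64 the lowest. Among the control striata, mouse 58 had the lowest sum and mouse 64 the highest. Counts of members are given below also without the cortices of mice 58 and 63 and the striata of mice 58 and 64. These are called the 4 control libraries that stood apart. The alternative was chosen after seeing the data. It left the control cortices of mice 55 and 64 and the control striata of mice 63 and 65.

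In the cortex, 55 of the 59 members had enough counts to be tested, and 22 of them (40%) were DEGs, against 33.3% of all 18268 genes tested. Of these, 9 members were higher in Trrap-FBΔ mice (16.4%, against 15.7% of all genes) and 13 were lower (23.6%, against 17.6%). In the striatum, 57 members were tested and 20 were DEGs (35.1%, against 30.2% of 18872 genes), 8 of them higher (14%, against 14.4%) and 12 lower (21.1%, against 15.8%). The 4 Trrap-FBΔ values all lay outside the range of the 4 control values for 19 members in the cortex (34.5%, against 32.7% of all genes) and for 25 in the striatum (43.9%, against 31.6%). The shares of DEGs among the Rab genes thus lay near those of all genes. Without the 4 control libraries that stood apart, 13 members were DEGs in the cortex (5 higher, 8 lower; 23.6%, against 22.4% of all genes in that fit) and 16 in the striatum (5 higher, 11 lower; 28.1%, against 18.8%). These fits held fewer control libraries. The effects of the libraries left out and of the smaller number therefore cannot be told apart. The calls lost were those of Rab1a, Rab5c, Rab7, Rab9, Rab12, Rab14, Rab28, Rab32 and Rab33a in the cortex. In the striatum they were those of Rab10, Rab13, Rab24, Rab30 and Rab36, and Rab27b was gained. The median log2 fold change of the members tested was -0.01 for cortical and -0.07 for striatal libraries, where that of all genes tested was 0.00 and -0.01.

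**Figure D1:**
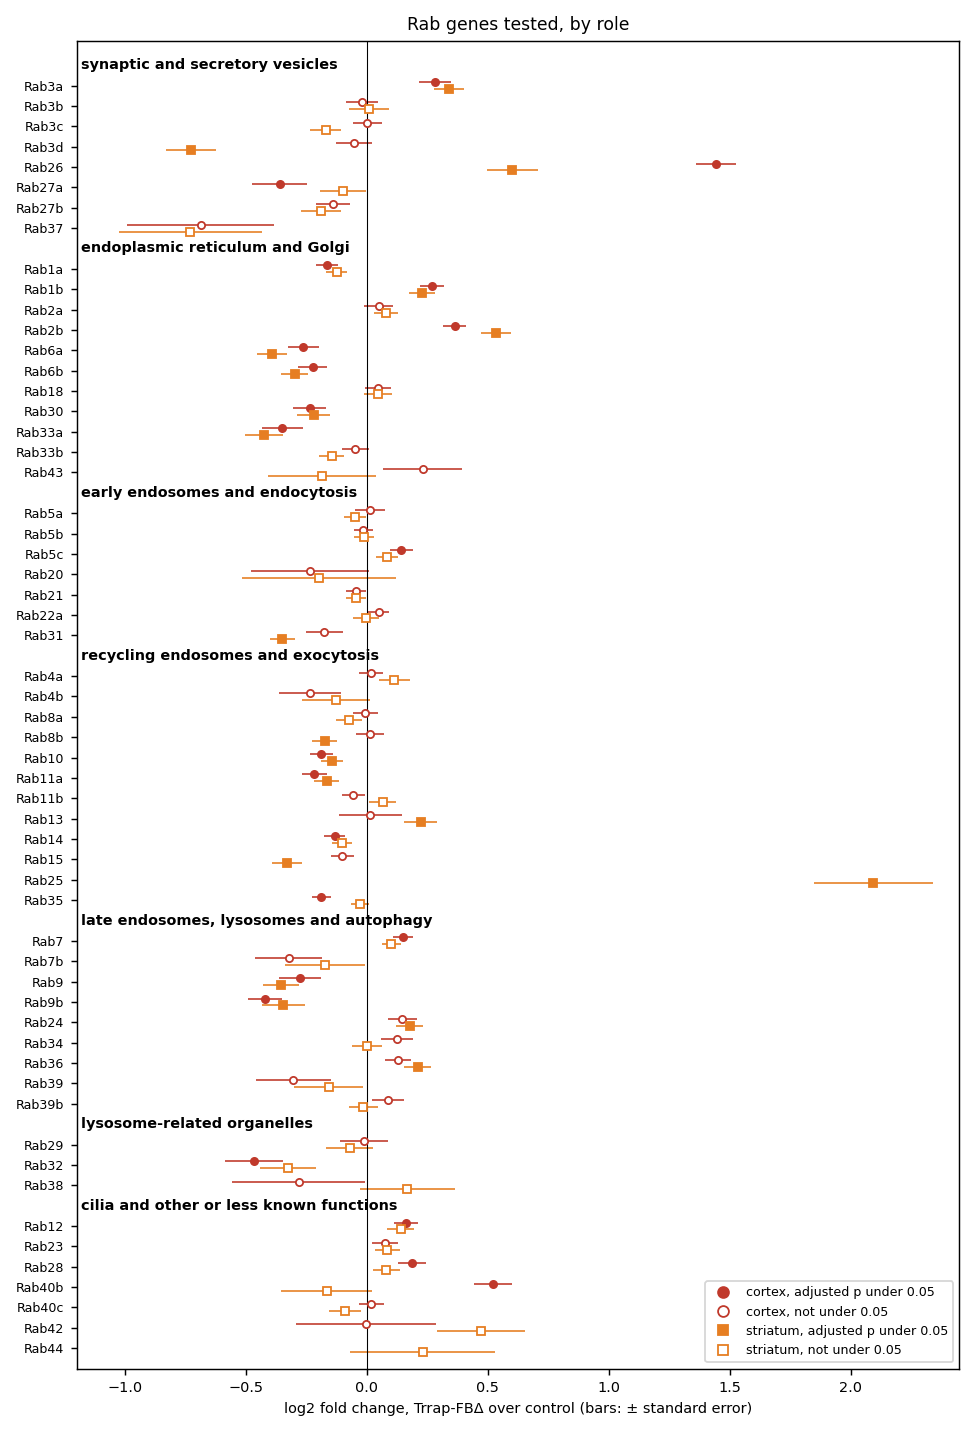
Log2 fold change of each Rab gene tested, Trrap-FBΔ against control, in the cortex and in the striatum (point, estimate; bar, SE; 4 against 4 libraries). Color and shape give the tissue, and filled points are DEGs. Rab26 stands at 1.45 in the cortex and 0.60 in the striatum, Rab25 at 2.09 in the striatum, and the other DEGs lie between -0.73 and 0.53.

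Of the 55 members tested in both tissues, 4 were higher in both (Rab26, Rab2b, Rab3a and Rab1b) and 8 were lower in both (Rab33a, Rab9b, Rab6a, Rab9, Rab6b, Rab30, Rab11a and Rab10). These are 7.27% and 14.5% of the members, where 8.47% and 10.5% of the 17938 genes tested in both tissues were higher or lower in both. No member was a DEG in opposite directions, 10 were DEGs in the cortex and not in the striatum, 7 in the striatum and not in the cortex, and 26 in neither. The matching shares of all genes were not counted, so these counts are not read as particular to the Rab genes. The share of higher members among those changed in both tissues depended on the scaling, with 4 of 12 (33.3%) under the scaling by trimmed means (TMM) used throughout and 7 of 13 (53.8%) under upper-quartile normalization. Libraries of both tissues came from the same mice in most cases, so the tissues are not independent samples of animals.

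The promoters of the 10 members changed in both tissues that had an entry are shown, because the study concerned Sp1, a factor that binds GC boxes. Rab26 and Rab30 also changed in both tissues but had no entry. The sequences are from RefSeq (GRCm38.p6) and run 5′ to 3′ on the gene's strand from 250 bases before to 50 bases after the annotated start, with capitals marking the GC box core GGGCGG on either strand, overlaps included. Rab3a (chr8:70754453-70754752, forward strand), Rab2b (chr14:52279346-52279645, reverse strand) and Rab1b (chr19:5106947-5107246, reverse strand) were higher in both tissues, and Rab9b (chrX:136868507-136868806, reverse strand), Rab6b (chr9:103111824-103112123, forward strand), Rab6a (chr7:100607336-100607635, forward strand), Rab33a (chrX:48519035-48519334, forward strand), Rab11a (chr9:64737707-64738006, reverse strand), Rab10 (chr12:3309920-3310219, reverse strand) and Rab9 (chrX:166479818-166480117, reverse strand) were lower in both.
Rab3a: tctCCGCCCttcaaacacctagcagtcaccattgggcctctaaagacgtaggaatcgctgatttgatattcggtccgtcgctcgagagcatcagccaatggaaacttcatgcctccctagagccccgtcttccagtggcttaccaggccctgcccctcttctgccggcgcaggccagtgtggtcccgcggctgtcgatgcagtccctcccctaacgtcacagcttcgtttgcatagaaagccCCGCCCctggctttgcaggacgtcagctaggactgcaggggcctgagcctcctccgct
Rab2b: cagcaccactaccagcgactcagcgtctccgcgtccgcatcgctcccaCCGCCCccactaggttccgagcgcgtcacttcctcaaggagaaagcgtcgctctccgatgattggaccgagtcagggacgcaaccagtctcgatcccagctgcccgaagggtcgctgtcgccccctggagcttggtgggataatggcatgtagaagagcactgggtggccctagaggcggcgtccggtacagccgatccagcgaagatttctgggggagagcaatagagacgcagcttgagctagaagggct
Rab1b: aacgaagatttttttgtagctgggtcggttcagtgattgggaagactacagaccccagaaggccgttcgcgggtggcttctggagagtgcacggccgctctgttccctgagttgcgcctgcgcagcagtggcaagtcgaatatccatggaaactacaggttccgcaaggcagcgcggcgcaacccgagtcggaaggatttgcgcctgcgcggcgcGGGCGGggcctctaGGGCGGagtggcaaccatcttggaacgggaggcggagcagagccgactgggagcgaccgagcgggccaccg
Rab9b: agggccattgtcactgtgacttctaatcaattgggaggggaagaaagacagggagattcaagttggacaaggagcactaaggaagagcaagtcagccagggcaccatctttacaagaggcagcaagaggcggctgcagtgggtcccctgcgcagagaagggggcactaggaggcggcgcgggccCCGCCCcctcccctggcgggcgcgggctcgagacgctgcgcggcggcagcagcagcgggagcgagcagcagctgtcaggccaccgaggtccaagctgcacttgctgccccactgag
Rab6b: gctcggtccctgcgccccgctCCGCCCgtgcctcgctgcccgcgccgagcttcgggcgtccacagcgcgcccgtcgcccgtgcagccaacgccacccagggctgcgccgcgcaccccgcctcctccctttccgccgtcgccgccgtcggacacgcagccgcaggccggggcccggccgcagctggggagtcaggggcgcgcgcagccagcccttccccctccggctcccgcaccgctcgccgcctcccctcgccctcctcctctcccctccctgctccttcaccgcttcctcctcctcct
Rab6a: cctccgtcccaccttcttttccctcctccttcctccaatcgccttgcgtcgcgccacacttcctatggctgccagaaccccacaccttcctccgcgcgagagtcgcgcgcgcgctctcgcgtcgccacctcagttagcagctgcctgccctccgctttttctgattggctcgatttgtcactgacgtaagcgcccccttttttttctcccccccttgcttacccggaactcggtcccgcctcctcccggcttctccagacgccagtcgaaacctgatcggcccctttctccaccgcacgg
Rab33a: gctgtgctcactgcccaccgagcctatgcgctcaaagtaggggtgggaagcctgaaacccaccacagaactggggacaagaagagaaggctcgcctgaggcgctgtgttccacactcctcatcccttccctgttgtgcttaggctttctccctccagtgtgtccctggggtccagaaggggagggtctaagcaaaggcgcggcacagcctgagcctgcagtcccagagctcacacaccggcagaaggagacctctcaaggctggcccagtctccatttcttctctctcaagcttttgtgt
Rab11a: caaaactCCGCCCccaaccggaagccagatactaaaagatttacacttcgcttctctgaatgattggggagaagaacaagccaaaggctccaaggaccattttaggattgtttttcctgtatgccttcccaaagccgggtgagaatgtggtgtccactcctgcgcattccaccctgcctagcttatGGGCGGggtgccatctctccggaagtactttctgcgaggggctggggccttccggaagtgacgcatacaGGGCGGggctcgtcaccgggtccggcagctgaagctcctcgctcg
Rab10: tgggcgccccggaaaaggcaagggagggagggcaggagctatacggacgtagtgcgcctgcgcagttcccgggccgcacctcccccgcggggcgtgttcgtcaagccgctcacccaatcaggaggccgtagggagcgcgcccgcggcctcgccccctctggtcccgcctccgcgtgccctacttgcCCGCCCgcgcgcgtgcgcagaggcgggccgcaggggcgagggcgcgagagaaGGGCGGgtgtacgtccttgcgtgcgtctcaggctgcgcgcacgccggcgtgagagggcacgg
Rab9: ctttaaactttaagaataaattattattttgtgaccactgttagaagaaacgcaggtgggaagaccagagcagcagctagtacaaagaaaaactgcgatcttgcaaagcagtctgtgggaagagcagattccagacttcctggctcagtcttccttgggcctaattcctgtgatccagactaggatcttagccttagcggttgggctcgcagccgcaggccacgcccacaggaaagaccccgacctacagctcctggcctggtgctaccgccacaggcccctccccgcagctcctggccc
Rab11a held 3 cores in this window, Rab3a, Rab1b and Rab10 held 2 each, Rab2b, Rab9b and Rab6b held 1 each, and Rab6a, Rab33a and Rab9 held 0. Rab3a has another annotated start, whose window (chr8:70754852-70755151) held 0, and a gene with several windows was counted by the one with the most cores. The 2 cores of Rab1b began 35 and 21 bases before the start, that of Rab9b 66 bases before it, and those of Rab2b and Rab6b farther upstream, at 202 and 229 bases. Promoters were given for 48 members, of which 36 (75%) held at least 1 core. The share was 38.2% over the 27025 genes of the promoter table and 64.9% over the 12693 of them that were tested in both tissues. Among members with an entry, which leaves out Rab26, a core was found in 3 of the 3 higher in both tissues, in 4 of the 7 lower in both (57.1%) and in 15 of the 21 that were DEGs in neither (71.4%). Over all genes with a promoter, the share was 63.2% of the 1159 higher in both tissues and 71.6% of the 1370 lower in both. These matches are of letters only and show no binding.

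Among the 8 members of synaptic and secretory vesicles, Rab26 and Rab3a rose in both tissues, Rab3d fell in the striatum and Rab27a fell in the cortex. Rab26 (ENSMUSG00000079657, chr17:24527241-24534210, reverse strand) rose 2.72-fold in the cortex and 1.52-fold in the striatum. Its level was 15.9, 19.1, 20.3 and 21.7 CPM in the control cortices and 54.7, 50, 53 and 52.5 CPM in the Trrap-FBΔ cortices. In the striatum it was 22.9, 23.2, 19.8 and 22.6 CPM in controls and 39.4, 27.5, 36.4 and 31 CPM in Trrap-FBΔ mice. The groups did not overlap in either tissue, and the lowest Trrap-FBΔ cortex lay above the highest value of all other libraries. The mean level was 19.2 ± 2.48 and 52.5 ± 1.92 CPM in the cortex (SD, n = 4; log2 fold change 1.45 ± 0.08, SE; edgeR adjusted p = 2.96e-06), the largest log2 fold change of the 55 members tested there. In the striatum it was 22.1 ± 1.57 and 33.6 ± 5.33 CPM (log2 fold change 0.60 ± 0.11, SE; edgeR adjusted p = 0.00258), second to Rab25. Per length, Rab26 was a gene of middling level, with 6.75 ± 0.869 RPKM in control cortex and 7.76 ± 0.549 RPKM in control striatum (SD, n = 4), the 39th of the 59 members by the mean of both, and it reached 18.4 and 11.8 RPKM in Trrap-FBΔ mice.

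The rise of Rab26 differed between the tissues. The log2 fold change was 0.84 lower in the striatum than in the cortex (interaction -0.84 ± 0.14, SE; edgeR adjusted p = 0.0169). This call was lost without mouse 58, 59, 61 or 63, with an adjusted p of up to 0.101, and without the 4 control libraries that stood apart, where the interaction was -0.92 and the adjusted p 0.112. The rise itself was a DEG call in both tissues under every alternative run, those without the 4 control libraries included, with log2 fold changes of 1.37 to 1.51 in the cortex and 0.52 to 0.69 in the striatum. Since whole tissue was sequenced, a change in the number of cells of a type and a change of RNA per cell cannot be told apart, here and for every gene below.

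**Figure D2:**
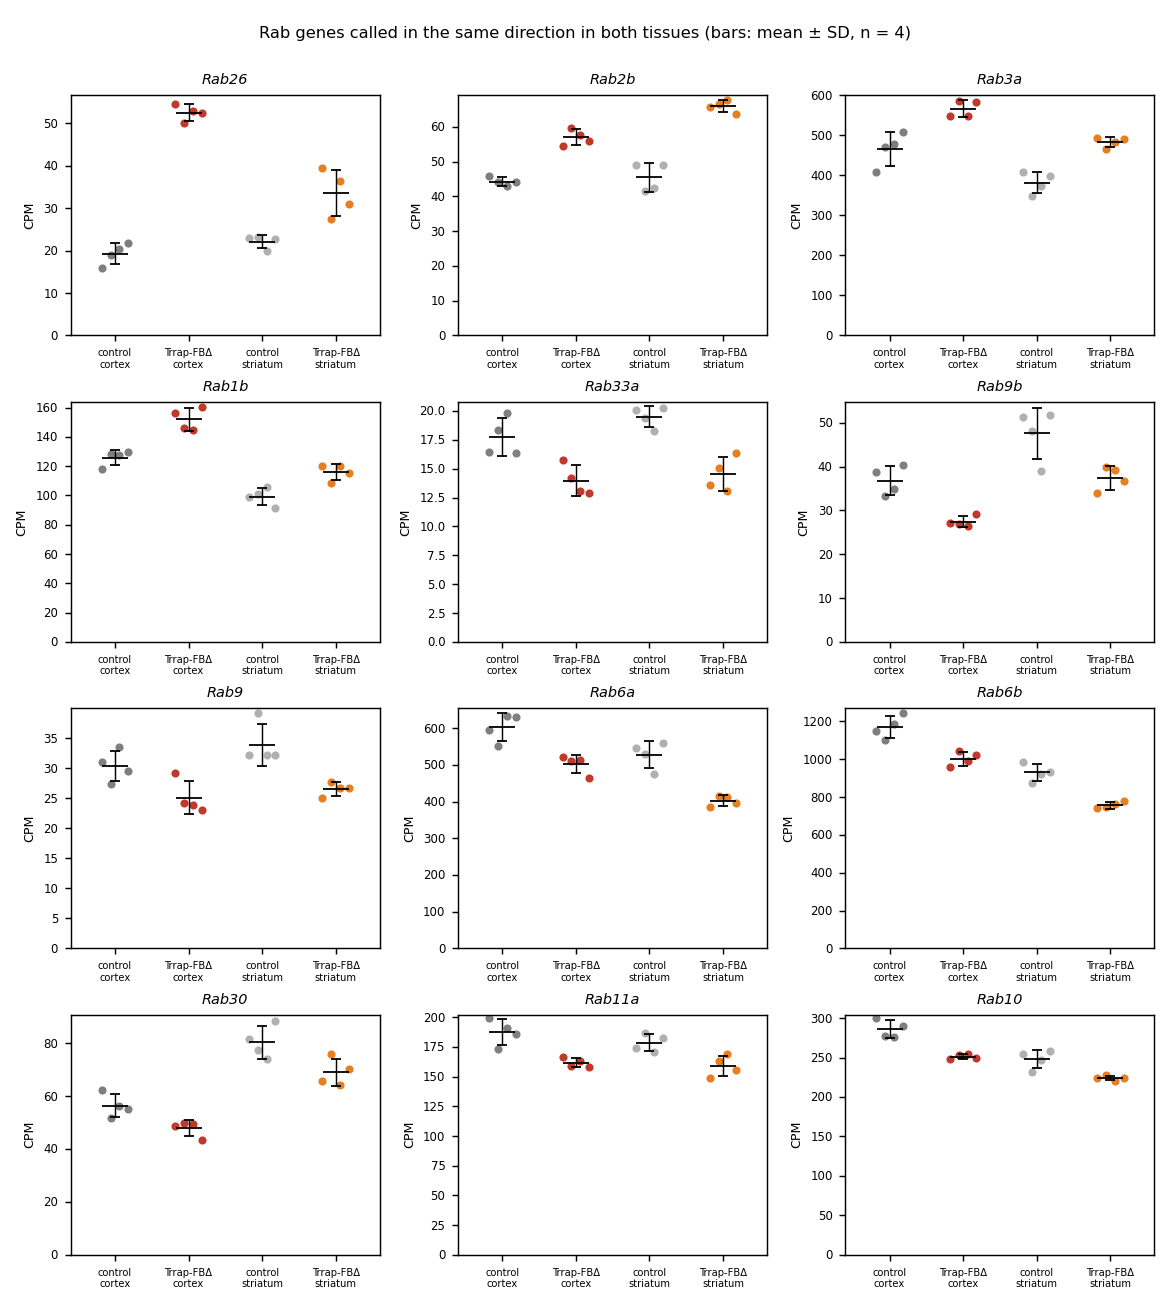
CPM of the 12 Rab genes that were DEGs in the same direction in both tissues, 1 point per library, with the mean and SD of each group of 4 libraries. Rab26 stands at a mean of 19.2 and 52.5 CPM in the control and Trrap-FBΔ cortex and at 22.1 and 33.6 CPM in the striatum.

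The gene on the opposite strand within Rab26, Rab26os (chr17:24528248-24528744), was counted apart from it by strand, and its cortical log2 fold change was -0.34 and the striatal one -0.36 (edgeR adjusted p = 0.0707 and 0.055). The 3′ end of Rab26 overlaps Traf7 on the same strand (chr17:24508562-24527938), with which it shared more of the 5.88% of its 51-base stretches that were not its own than with any other gene, and Traf7 was at -0.04 and 0.01 (edgeR adjusted p = 0.488 and 0.954). Of 6 other genes nearby, chosen after their values were seen, the closest were Pkd1 at 15624 bases, which was a DEG in the cortex (0.14) and not in the striatum (0.02), and Caskin1 at 18570 bases, which was a DEG in the striatum (0.18) and not in the cortex (edgeR adjusted p = 0.993). Mlst8, a subunit of the mTOR complexes that lies 48163 bases away, rose in both tissues (0.37 and 0.32 on the log2 scale), as did Tsc2, an inhibitor of that pathway (0.20 and 0.27). Bricd5 (-0.40 and -0.44) and Nthl1 (0.31 and 0.32) were DEGs in neither tissue. Of the known partners of Rab26, its exchange factor Plekhg5 rose in the cortex, at a log2 fold change of 0.47 ± 0.09 (SE; edgeR adjusted p = 0.0021), and stood at 0.17 in the striatum (edgeR adjusted p = 0.17). Atg16l1, the autophagy protein that binds Rab26, was a DEG in neither tissue (0.07 and 0.03).

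Rab37 (ENSMUSG00000020732, chr11:115091431-115162236, forward strand), the closest relative of Rab26 and a protein of secretory granules, passed edgeR's test in neither tissue. It had 0.402, 0.946, 0.779 and 0.775 CPM in control cortices and 0.519, 0.698, 0.34 and 0.313 CPM in Trrap-FBΔ cortices. In the striatum it had 6.65, 3.46, 3.34 and 5.23 CPM in controls and 1.96, 3.76, 1.77 and 3.76 CPM in Trrap-FBΔ mice. The groups overlapped in both tissues, and the cortical log2 fold change was -0.69 ± 0.30 and the striatal one -0.73 ± 0.30 (SE; edgeR adjusted p = 0.103 and 0.0881). Its striatal difference passed with DESeq2 (-0.73, adjusted p = 0.0376) and by edgeR with no filter on low counts (-0.72, adjusted p = 0.046). Its cortical values rest on few reads, 11 to 40 per control library.

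Rab3a (ENSMUSG00000031840, chr8:70754679-70758677, forward strand) is the main Rab of synaptic vesicles and acts in transmitter release. Its level was 408, 472, 478 and 508 CPM in control cortices and 548, 587, 549 and 584 CPM in Trrap-FBΔ cortices. Striatal values were 409, 348, 374 and 398 CPM in controls and 493, 465, 483 and 491 CPM in Trrap-FBΔ mice. Every Trrap-FBΔ library lay above all controls of its tissue, and the cortical log2 fold change was 0.28 ± 0.07 and the striatal one 0.34 ± 0.06 (SE; edgeR adjusted p = 0.00807 and 0.0027). Rab3gap1, the catalytic subunit of the GTPase-activating complex for Rab3 proteins, also rose in both tissues (0.45 and 0.28 on the log2 scale).

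Rab3d (ENSMUSG00000019066, chr9:21907491-21918192, reverse strand), which acts in regulated secretion, fell in the striatum. It had 16.9, 18.7, 19.4 and 14.5 CPM in control striata and 10.6, 9.37, 11.8 and 10.1 CPM in Trrap-FBΔ striata, with no overlap. In the cortex it had 34.8, 27.8, 30.7 and 32.9 CPM in controls and 29.1, 29.1, 30.6 and 32.8 CPM in Trrap-FBΔ mice, and these groups overlapped. The log2 fold change was -0.73 ± 0.10 in the striatum (SE; edgeR adjusted p = 0.000859) and -0.05 ± 0.07 in the cortex (edgeR adjusted p = 0.617), and the difference between the tissues passed the test (interaction -0.67 ± 0.13, SE; edgeR adjusted p = 0.032). That difference was lost without mouse 57, 58, 59, 61, 63 or 64, with an adjusted p of up to 0.142, and without the 4 control libraries that stood apart (-0.50, adjusted p = 0.221). Of the 7 excitatory neuron markers, 5 were also lower in the Trrap-FBΔ striatum, where their summed level was 951 to 1288 CPM against 1336 to 1937 CPM in controls, and the vesicular glutamate transporter Slc17a7 stood at -0.88 on the log2 scale. Markers of other cells were lower there too, among them 5 of 7 for immature neurons and 5 of 8 for microglia, with 0 higher in either list. Over all genes, 15.8% were lower in the striatum. The part of any of these cells in the fall of Rab3d was not tested.

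Rab3b and Rab3c, 2 further vesicle isoforms, were DEGs in neither tissue (-0.02 and 0.00 in the cortex, 0.01 and -0.17 in the striatum). Rab3b had 62.7, 61.6, 62 and 67.5 CPM in control and 57.3, 63.8, 58.1 and 71.2 CPM in Trrap-FBΔ cortices, and 43.1, 46.3, 48.7 and 37.9 and 45, 39.6, 44.6 and 47.9 CPM in the striata, so that its groups overlapped in both tissues. Rab27a (ENSMUSG00000032202, chr9:73044854-73097629, forward strand), which docks secretory granules, had 7.53, 6.55, 6.03 and 7.18 CPM in control and 4.39, 5.39, 5.22 and 6.19 CPM in Trrap-FBΔ cortices. Its fall there (-0.36 ± 0.11, SE; edgeR adjusted p = 0.0303) came with overlapping groups and was lost when any 1 of 5 libraries was left out and with sex as a covariate. The control striata had 13, 12.3, 10.5 and 13.8 CPM and the Trrap-FBΔ striata 10.3, 12, 12.3 and 11.6 CPM (edgeR adjusted p = 0.455), and Rab27b passed the test in neither tissue.

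Of the 11 members of the endoplasmic reticulum and the Golgi, 7 were DEGs in the cortex (2 higher, 5 lower; 63.6%, against 33.3% of all genes) and 6 in the striatum (2 higher, 4 lower; 54.5%, against 30.2%), and Rab1b and Rab2b were the members that rose. Rab2b (ENSMUSG00000022159, chr14:52261759-52279545, reverse strand), a Golgi and endoplasmic reticulum protein, had 45.7, 44.3, 42.9 and 44.3 CPM in control and 54.4, 59.8, 57.8 and 56 CPM in Trrap-FBΔ cortices. Striatal levels were 48.9, 41.5, 42.4 and 49.2 CPM in controls and 65.6, 66.5, 67.8 and 63.6 CPM in Trrap-FBΔ mice. Neither pair of groups overlapped, and the log2 fold change was 0.36 ± 0.05 and 0.53 ± 0.06 (SE; edgeR adjusted p = 0.000253 and 0.000397). As 56.9% of its 51-base stretches also occur in other transcripts, most often those of Gm43766, reads of those stretches cannot be assigned to Rab2b alone. Its close relative Rab2a stood at 0.05 and 0.08 and was a DEG in neither tissue.

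Rab1b (ENSMUSG00000024870, chr19:5099205-5107072, reverse strand) acts in transport from the endoplasmic reticulum to the Golgi. It had 118, 128, 128 and 129.6 CPM in control and 156, 146, 145 and 160.5 CPM in Trrap-FBΔ cortices. In the striatum it had 98.8, 101, 106 and 91.3 CPM in controls and 120.1, 108, 120.4 and 115 CPM in Trrap-FBΔ mice. The Trrap-FBΔ libraries lay above all controls of their tissue, with log2 fold changes of 0.27 ± 0.05 and 0.23 ± 0.06 (SE; edgeR adjusted p = 0.00154 and 0.0117). Rab1a, which shares this step, fell in the cortex (-0.16, edgeR adjusted p = 0.0151) and stood at -0.12 in the striatum (edgeR adjusted p = 0.0517). Without the Trrap-FBΔ cortex of mouse 59 or 60 its call was lost. The paralogs Rab1a and Rab1b thus changed in opposite directions in the cortex.

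Rab6a (ENSMUSG00000030704, chr7:100607410-100641268, forward strand) and its neuron-enriched paralog Rab6b (ENSMUSG00000032549, chr9:103111787-103185276, forward strand), which act at the Golgi in the return of cargo to the endoplasmic reticulum and in transport to the plasma membrane, both fell. Rab6a had 596, 550.3, 634 and 629 CPM in control and 520.3, 512, 513 and 465 CPM in Trrap-FBΔ cortices. The control striata had 545, 529.6, 475 and 560 CPM and the Trrap-FBΔ striata 385, 415, 414 and 396 CPM. Its groups did not overlap, and it changed by -0.26 ± 0.06 and -0.39 ± 0.06 on the log2 scale (SE; edgeR adjusted p = 0.00866 and 0.00161). Of its 51-base stretches 18.9% are shared, most often with Mrpl48. Rab6b had 1148, 1103, 1187 and 1244 CPM in control and 958, 1042, 989.7 and 1023 CPM in Trrap-FBΔ cortices. Its striatal levels were 988, 876, 923 and 935 CPM in controls and 741, 745, 762 and 779 CPM in Trrap-FBΔ mice. There too every Trrap-FBΔ library lay below all controls, at -0.22 ± 0.06 and -0.30 ± 0.06 (SE; edgeR adjusted p = 0.0159 and 0.00386).

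Rab33a (ENSMUSG00000031104, chrX:48519285-48530232, forward strand), which acts on post-Golgi vesicles of growing axons, had 16.5, 18.4, 19.8 and 16.4 CPM in control and 15.7, 14.2, 13.1 and 12.9 CPM in Trrap-FBΔ cortices. Striatal levels were 20.1, 19.4, 18.3 and 20.3 CPM in controls and 13.6, 15, 13.1 and 16.4 CPM in Trrap-FBΔ mice. The groups were apart in both tissues, and the log2 fold change was -0.35 ± 0.09 and -0.42 ± 0.08 (SE; edgeR adjusted p = 0.00919 and 0.00311). Of 7 markers of immature neurons, 6 fell in cortical and 5 in striatal libraries, with summed levels of 4043 to 5364 CPM in control and 1983 to 2459 CPM in Trrap-FBΔ cortices and of 2959 to 3342 and 1618 to 1899 CPM in the striata. Over all genes, 17.6% were lower in the cortex and 15.8% in the striatum. The part of the fall of these markers in that of Rab33a was not tested. Rab30 (ENSMUSG00000030643, chr7:92741603-92844535, forward strand), another Golgi member, had 62.2, 51.7, 56.3 and 54.9 CPM in control and 48.6, 49.8, 49.5 and 43.3 CPM in Trrap-FBΔ cortices, which did not overlap. It had 81.7, 77.3, 73.9 and 88.4 CPM in control and 65.8, 75.8, 64.3 and 70.2 CPM in Trrap-FBΔ striata, which did. It fell by 0.24 and 0.22 on the log2 scale (edgeR adjusted p = 0.019 and 0.0348). The cortical call was lost without the Trrap-FBΔ cortex of mouse 61 (edgeR adjusted p = 0.0561), and the striatal call was lost when any 1 of 5 libraries was left out and with sex as a covariate. Rab18, Rab33b and Rab43, which act on lipid droplets and the endoplasmic reticulum, in autophagy and at the Golgi, were DEGs in neither tissue.

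Among the 9 members of late endosomes, lysosomes and autophagy, Rab9 and Rab9b, which return receptors from late endosomes to the trans-Golgi, fell in both tissues. Rab9b (ENSMUSG00000043463, chrX:136858147-136868755, reverse strand) had 38.7, 33.3, 34.8 and 40.4 CPM in control and 27.1, 27, 26.5 and 29.2 CPM in Trrap-FBΔ cortices. In the striatum it had 51.3, 48.2, 39.1 and 51.7 CPM in controls and 33.9, 40, 39.2 and 36.8 CPM in Trrap-FBΔ mice. The groups were apart in the cortex and overlapped in the striatum, with log2 fold changes of -0.42 ± 0.07 and -0.34 ± 0.09 (SE; edgeR adjusted p = 0.000986 and 0.0167). Rab9 (ENSMUSG00000079316, chrX:166457253-166479867, reverse strand) had 31, 27.4, 33.5 and 29.6 CPM in control and 29.1, 24.3, 23.9 and 23 CPM in Trrap-FBΔ cortices. Its striatal levels were 32.1, 39.1, 32.2 and 32.1 CPM in controls and 25, 27.6, 26.8 and 26.6 CPM in Trrap-FBΔ mice. Here the groups overlapped in the cortex, through the Trrap-FBΔ mouse 57, and were apart in the striatum, at -0.28 ± 0.09 and -0.35 ± 0.07 (SE; edgeR adjusted p = 0.0281 and 0.00551). The cortical call of Rab9 was lost when any 1 of 5 libraries was left out.

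Rab9, Rab9b and Rab33a lie on the X chromosome, where 25.2% of 606 genes tested were lower in cortical libraries and 24.9% of 630 in striatal ones. Over all genes, 17.6% and 15.8% were lower. Of the X-linked genes, 8.42% and 8.41% were higher, against 15.7% and 14.4% of all genes. The fourth member on this chromosome, Rab39b, was a DEG in neither tissue (0.09 and -0.01). With sex as a covariate the log2 fold changes of Rab9, Rab9b and Rab33a were -0.31, -0.43 and -0.37 in the cortex and -0.42, -0.33 and -0.47 in the striatum, and the call of Rab9b in the striatum was lost (edgeR adjusted p = 0.0533), as it was without the Trrap-FBΔ striatum of mouse 57. Rab7, which drives the fusion of late endosomes with lysosomes, rose in the cortex (0.15, edgeR adjusted p = 0.0184) and stood at 0.10 in the striatum (edgeR adjusted p = 0.0811), and its cortical call was lost with no filter on low counts. Rab24, found on autophagosomes, and Rab36 rose in the striatum (0.18 and 0.21). The call of Rab36 was lost without the Trrap-FBΔ striatum of mouse 57 or 60, and that of Rab24 without 6 of 8 libraries taken 1 at a time, with no filter on low counts and with sex as a covariate. Rab24 shares 49.4% of its 51-base stretches, most often with Prelid1. Rab7b (ENSMUSG00000052688, chr1:131688695-131715439, forward strand), a late endosomal member, had 4.17, 5.06, 5.51 and 3.93 CPM in control and 4.01, 3.41, 4.36 and 3.21 CPM in Trrap-FBΔ cortices. The control striata had 9.54, 5.81, 6.18 and 8.52 CPM and the Trrap-FBΔ striata 6.62, 6.87, 5.45 and 7.66 CPM, and it passed the test between genotypes in neither tissue, with overlapping groups. Rab34, which positions lysosomes, and Rab39 were DEGs in neither tissue.

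Of the 12 members of recycling endosomes and exocytosis, Rab10 and Rab11a fell in both tissues and Rab25 rose in the striatum. Rab11a (ENSMUSG00000004771, chr9:64715299-64737758, reverse strand), the marker of recycling endosomes, had 199.6, 173, 191 and 186 CPM in control and 166, 159, 163 and 158 CPM in Trrap-FBΔ cortices. Striatal levels were 174, 186, 171 and 182 CPM in controls and 149, 163, 169 and 156 CPM in Trrap-FBΔ mice. The changes were small and the groups apart in both tissues, at -0.22 ± 0.05 and -0.17 ± 0.05 on the log2 scale (SE; edgeR adjusted p = 0.00682 and 0.0351). Rab10 (ENSMUSG00000020671, chr12:3247428-3309969, reverse strand), which delivers membrane to the growing axon, had 300.2, 277, 275 and 290.3 CPM in control and 248, 253, 254 and 249.8 CPM in Trrap-FBΔ cortices. Its striatal levels were 254, 232, 246 and 258 CPM in controls and 224, 227, 221 and 224 CPM in Trrap-FBΔ mice. The SD of the Trrap-FBΔ groups was 2.76 CPM in both tissues, and the groups were apart, at -0.19 ± 0.05 and -0.14 ± 0.05 (SE; edgeR adjusted p = 0.00897 and 0.0389). The striatal calls of both genes were lost under upper-quartile normalization, with no filter on low counts, with sex as a covariate and without single libraries (5 for Rab11a and 7 for Rab10).

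Rab25 (ENSMUSG00000008601, chr3:88542029-88548300, reverse strand), the epithelial member of the Rab11 family, was rare in every library. It had 0.283, 0.239, 0.237 and 0.364 CPM in control striata and 0.804, 1.44, 1.23 and 1.39 CPM in Trrap-FBΔ striata, which are 9 to 16 and 37 to 71 reads. In the cortex it had 1 to 5 reads per library in both groups and was not tested. The striatal groups did not overlap, and the log2 fold change was 2.09 ± 0.25 (SE; edgeR adjusted p = 0.000385). In the fit of all libraries the difference between the tissues did not pass the test (2.49 ± 0.61, SE; edgeR adjusted p = 0.0783). Rab25 passed the count filter of that fit only through the Trrap-FBΔ striata, where it was high. A filter of at least 10 reads in every library left Rab25 out. The choroid plexus, an epithelium that borders the ventricle, was looked at by 5 markers, whose summed level was 117 to 559 CPM in control striata and 277 to 735 CPM in Trrap-FBΔ striata, with a median log2 fold change of 0.59. In the striatum 0 of these 5 markers were DEGs. Their sum was 735, 666, 658 and 277 CPM in the Trrap-FBΔ striata of mice 57, 59, 60 and 61. The part of the choroid plexus in the level of Rab25 was not tested.

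Rab15 (ENSMUSG00000021062, chr12:76797960-76822908, reverse strand), which slows recycling from early endosomes, fell in the striatum. It had 181, 194, 198 and 165 CPM in control striata and 151, 141, 152 and 142 CPM in Trrap-FBΔ striata, with no overlap (log2 fold change -0.33 ± 0.06, SE; edgeR adjusted p = 0.00347). In the cortex it had 272, 273, 295 and 286 CPM in controls and 274, 259.7, 259.6 and 259 CPM in Trrap-FBΔ mice, which overlapped (-0.10 ± 0.05, SE; edgeR adjusted p = 0.117). The markers of excitatory neurons, immature neurons and microglia that fell beside Rab3d in the striatum fell beside Rab15 as well. The part of any of these cells in the fall of Rab15 was not tested. Smaller changes were found for Rab8b and Rab13, 2 members of polarized exocytosis, in the striatum (-0.17 and 0.22) and for Rab14 and Rab35, which sort cargo for recycling, in the cortex (-0.13 and -0.19). Of these, the call of Rab35 was kept whichever library was left out, while those of Rab8b, Rab13 and Rab14 were lost without 4, 6 and 7 of 8 libraries taken 1 at a time. Rab4a and Rab4b, of fast recycling, Rab8a and Rab11b passed the test in neither tissue.

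Of the 8 members of early endosomes and endocytosis, 7 were tested, with 1 DEG in each tissue. This was 14.3%, against 33.3% of all genes in the cortex and 30.2% in the striatum. Rab5c, 1 of the 3 Rab5 forms that fuse early endosomes, rose in the cortex (0.14, edgeR adjusted p = 0.0414), a call lost when any 1 of 6 libraries was left out, with no filter on low counts and with sex as a covariate, and Rab31, which acts between the trans-Golgi and endosomes, fell in the striatum (-0.35, edgeR adjusted p = 0.000979). Rab5a and Rab5b lay between -0.05 and 0.01 on the log2 scale in both tissues and were DEGs in neither. Rab20, Rab21 and Rab22a passed the test in neither tissue either, and Rab17 had at most 6 reads in any library.

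Rab32 (ENSMUSG00000019832, chr10:10545002-10558265, reverse strand), which serves lysosome-related organelles, fell in the cortex. It had 2.38, 2.67, 2.57 and 2.2 CPM in control and 1.86, 1.68, 1.85 and 1.73 CPM in Trrap-FBΔ cortices. In the striatum it had 2.52, 2.99, 2.73 and 2.36 CPM in controls and 1.93, 2.15, 2.31 and 2.08 CPM in Trrap-FBΔ mice. The groups were apart in both tissues, but the test was passed in the cortex alone, at -0.46 ± 0.12 against -0.32 ± 0.12 in the striatum (SE; edgeR adjusted p = 0.0122 and 0.0556), and the difference between the tissues did not pass it (edgeR adjusted p = 0.771). Of 8 microglial markers, 7 fell in cortical and 5 in striatal libraries, with summed levels of 292 to 325 CPM in control and 210 to 265 CPM in Trrap-FBΔ cortices and of 232 to 285 and 192 to 206 CPM in the striata. Markers of other cells were lower in the Trrap-FBΔ cortex too, 7 of 8 for oligodendrocytes, 6 of 6 for their precursors and 5 of 6 for endothelial cells. In the striatum 0, 3 and 1 of these were lower. Of 8 astrocyte markers, 2 were higher and 2 lower in the cortex, and 2 were higher and 1 lower in the striatum. Over all genes, 17.6% were lower in the cortex and 15.8% in the striatum. The part of any of these cells in the fall of Rab32 was not tested. Rab29 and Rab38, the other two members of these organelles, were DEGs in neither tissue.

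Rab40b (ENSMUSG00000025170, chr11:121356125-121388251, reverse strand), an atypical member with a SOCS box that recruits a ubiquitin ligase, rose in the cortex. It had 20.8, 27.7, 25.7 and 25.5 CPM in control and 37, 35.5, 36.8 and 34.5 CPM in Trrap-FBΔ cortices, with no overlap. The control striata had 13.7, 23.4, 24.4 and 17.7 CPM and the Trrap-FBΔ striata 21, 14.2, 20.5 and 15 CPM, with full overlap. The log2 fold change was 0.52 ± 0.08 in the cortex (SE; edgeR adjusted p = 0.000537) and -0.16 ± 0.19 in the striatum (edgeR adjusted p = 0.539), and the difference between them did not pass the test over all genes (-0.69 ± 0.22, SE; edgeR adjusted p = 0.185). Rab12, which acts in autophagy and lysosomal transport, and Rab28, known from cilia, rose in the cortex (0.16 and 0.19). The call of Rab28 was lost when any 1 of 6 libraries was left out, and that of Rab12 with sex as a covariate or without the control cortex of mouse 58 (edgeR adjusted p of up to 0.0701). Rab23, a ciliary inhibitor of hedgehog signaling, Rab40c and Rab42 were DEGs in neither tissue, Rab44 was tested in the striatum only and did not pass (0.23, edgeR adjusted p = 0.591), and Rab19 had at most 6 reads in any library.

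**Figure D3:**
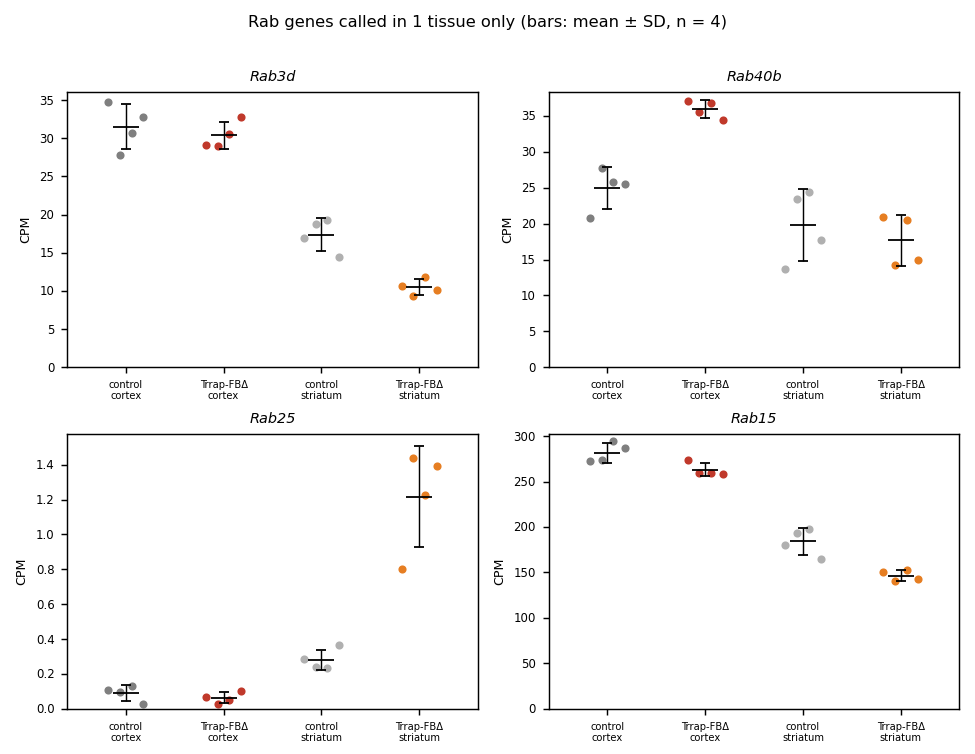
CPM of named Rab genes that were DEGs in 1 tissue only or differed between the tissues, 1 point per library, with the mean and SD of each group of 4 libraries. Rab3d stands at a mean of 17.4 and 10.5 CPM in control and Trrap-FBΔ striatum and at 31.5 and 30.4 CPM in the cortex, and Rab40b at 24.95 and 35.95 CPM in the cortex.

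Over the 57 members tested in all libraries together, the effect of the genotype differed between the tissues for 2 (3.51%), Rab26 and Rab3d, where 0.437% of 19438 genes passed this test. An unadjusted p under 0.05 was found for 8 members (14%, against 12.1% of all genes). Both effects were lower in the striatum than in the cortex, for Rab26 as a smaller rise and for Rab3d as a fall in the striatum. With DESeq2, 4 members passed (7.02%, against 2.35% of all genes). Without the 4 control libraries that stood apart 0 members and 2 of 20046 genes (0.00998%) passed by edgeR, and 8 members had an unadjusted p under 0.05 (14%, against 12.5%). The median of the interaction was 0.00 over the members and -0.01 over all genes.

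Levels of the members differed between the control tissues. Of 56 members tested, 12 were higher in control striatum than in control cortex (21.4%, against 20.3% of 18284 genes) and 15 were lower (26.8%, against 20.1%), which together are 27 (48.2%, against 40.4%). Without the libraries that stood apart these counts were 6 and 6, or 12 in all (21.1%, against 18% of all genes in that fit). Among the vesicle members 7 of 8 differed, with Rab37, Rab27a, Rab27b and Rab3c higher and Rab3a, Rab3b and Rab3d lower in the striatum, and Rab26 did not pass the test (0.20, edgeR adjusted p = 0.114). The calls of Rab3a and Rab3c were lost without the libraries that stood apart, and that of Rab3a also without the control cortex of mouse 64 (edgeR adjusted p = 0.0514).

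The largest rise from cortex to striatum among members with at least 50 reads on average was that of Rab37, from 0.726 to 4.67 CPM, or 6.25-fold (log2 fold change 2.64 ± 0.29, SE; edgeR adjusted p = 6.12e-05). Its 2 highest striatal values, of mice 58 and 65, were those of the libraries with the highest summed oligodendrocyte markers, which were 9556, 3220, 4493 and 7100 CPM in the control striata and 1814 to 3205 CPM in the control cortices, and all 8 of these markers were higher in the striatum. Rab27a followed at 0.86 ± 0.10 and Rab7b at 0.68 ± 0.18 (SE; edgeR adjusted p = 0.000123 and 0.0114), and for Rab7b too the striata of mice 58 and 65 were the highest. Whether oligodendrocytes carry these differences was not tested. The largest falls were those of Rab3d (-0.86 ± 0.10), Rab15 (-0.61 ± 0.06) and Rab3b (-0.53 ± 0.07; edgeR adjusted p = 9.21e-05, 4.96e-05 and 0.000309), and the groups of control cortices and striata did not overlap for any of these 3. Of the 7 excitatory neuron markers, 6 were lower in control striatum as well and 1 was higher. The part of these markers' cells in these falls was not tested.

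**Figure D4:**
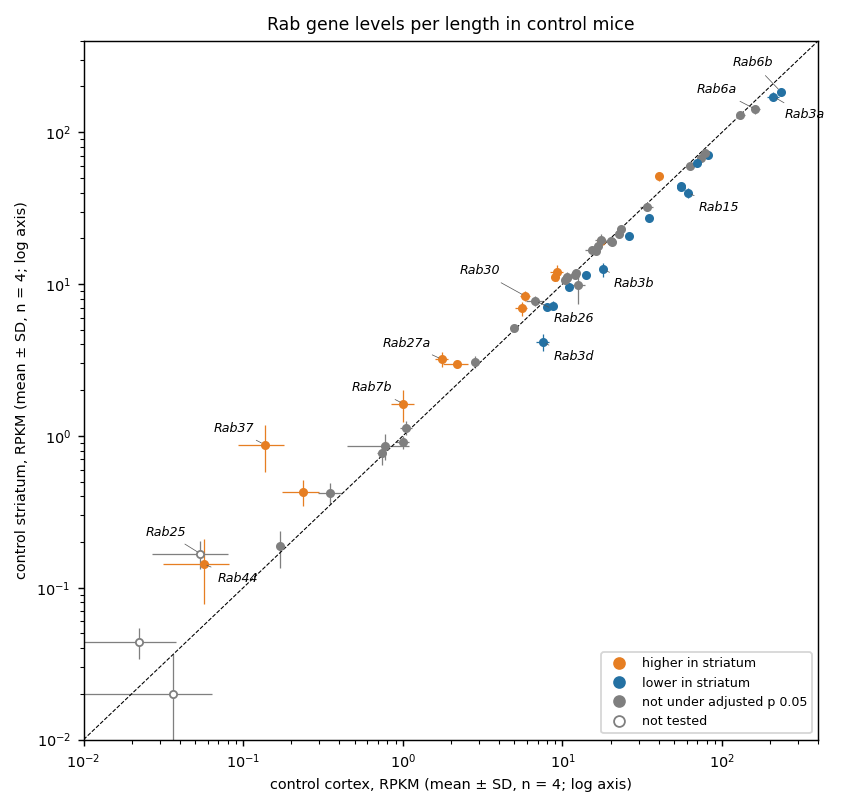
Level per length of each Rab gene in control cortex (horizontal) and control striatum (vertical), in RPKM on log axes, as the mean and SD of 4 libraries each, colored by the test between the tissues. The members span from under 0.1 RPKM to 233 RPKM for Rab6b in the cortex, and Rab37 lies farthest above the line of equal levels.

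Per length, the most abundant members were Rab6b with 233 ± 11.9 and 185 ± 9.13 RPKM in control cortex and striatum (SD, n = 4), Rab3a with 209 ± 18.9 and 172 ± 12.2 RPKM and Rab6a with 162 ± 10.4 and 142 ± 9.94 RPKM. Rab6b and Rab3a lay within 2 SD of each other in both tissues. Next came Rab2a with 129.8 and 130.3 RPKM. The lowest were Rab17, Rab19, Rab44 and Rab25, all under 0.2 RPKM in controls of either tissue. Of the 3 most abundant members, Rab6b and Rab6a fell and Rab3a rose in Trrap-FBΔ mice, so that Rab3a, with 255 RPKM in the Trrap-FBΔ cortex and 217 RPKM in the striatum, stood above Rab6b with 199 and 150.4 RPKM.

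The genes that load, anchor and switch off Rab proteins were read from lists of other genes of the pathway. The list for prenylation, GDP dissociation and membrane insertion held the highest share of DEGs of the 4 lists, 10 of 15 in the cortex (4 higher, 6 lower; 66.7%, against 33.3% of all genes) and 11 of 15 in the striatum (4 higher, 7 lower; 73.3%, against 30.2%), with median log2 fold changes of -0.13 and -0.16, beside 0.00 and -0.01 over all genes tested. The genes of this list lower in both tissues included Chml, the second Rab escort protein (-0.78 and -0.69 on the log2 scale), Rabggtb, the beta subunit of the Rab geranylgeranyl transferase (-0.26 and -0.22), the GDP dissociation inhibitor Gdi2 (-0.15 and -0.16), and Praf2 and Arl6ip5, of the family of prenylated Rab acceptors (-0.38 and -0.15 in the cortex, -0.34 and -0.23 in the striatum). Yipf1, Yipf2 and Yipf4, membrane proteins of the Golgi that bind Rab proteins, were higher in both (0.30, 0.47 and 0.36 in the cortex, 0.20, 0.48 and 0.24 in the striatum). Chml had the largest of these changes (edgeR adjusted p = 3.04e-05 and 0.000329), and its groups did not overlap. Praf2 lies on the X chromosome, like Rab9, Rab9b and Rab33a.

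Of 39 exchange factors, 7 were higher and 3 lower in the cortex and 7 higher and 2 lower in the striatum. The DEGs were 25.6% and 23.1%, against 33.3% and 30.2% of all genes. The medians of the exchange factors were 0.02 and 0.07. Those higher in both tissues included Dennd1b (0.25 and 0.30), Dennd6b (0.46 and 0.41) and Hps1, a subunit of the factor for Rab32 and Rab38 (0.30 and 0.30), and those lower in both were Sbf2 and Sh3bp5 (-0.22 and -0.25 in the cortex, -0.22 and -0.23 in the striatum). Among 39 GTPase-activating proteins tested, 10 were higher and 8 lower in the cortex and 8 higher and 5 lower in the striatum. Here the DEGs were 46.2% and 33.3%, against 33.3% and 30.2% of all genes. The medians of the GTPase-activating proteins were 0.04 and 0.07. Beside Rab3gap1, those higher in both were Tbc1d20, which acts on Rab1 (0.26 and 0.18), Tbc1d1, Tbc1d7, Tbc1d9b and Tbc1d22a, and those lower in both were Tbc1d16 (-0.41 and -0.49) and Tbc1d25 (-0.50 and -0.34).

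Among the effectors, 12 of 66 were higher and 14 lower in the cortex and 11 of 67 higher and 11 lower in the striatum, with 7 higher and 7 lower in both tissues and medians of 0.01 and 0.03. The DEGs were 39.4% and 32.8% of those tested, against 33.3% and 30.2% of all genes. Sytl1 and Sytl4, synaptotagmin-like proteins that bind Rab27 on secretory granules, rose in both (1.01 and 0.78 in the cortex, 1.29 and 0.58 in the striatum), as did Rab11fip3, an effector of Rab11 (0.20 and 0.23), and Fyco1, which links Rab7 to kinesin (0.38 and 0.19). Bicd2, which links Rab6 to dynein (-0.31 and -0.17), Myo5a, a myosin motor recruited by several Rab proteins (-0.17 and -0.21), and Erc1, an active zone protein that binds Rab6 (-0.20 and -0.28), fell in both tissues. The other effectors that changed in both were Rbsn, Ocrl and Rufy1, which rose, and Osbpl1a, Ehbp1l1, Rufy3 and Wdr44, which fell.

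**Figure D5:**
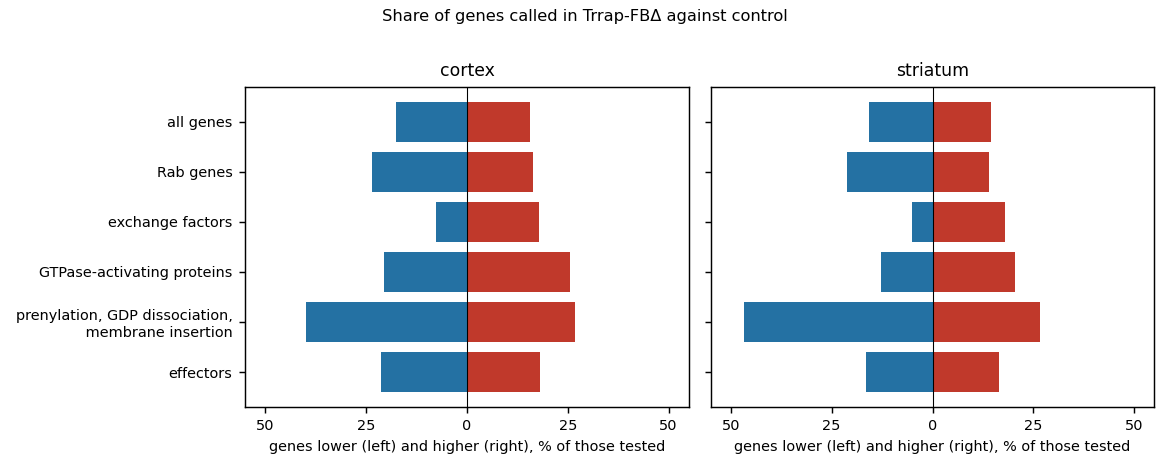
Share of genes tested that were higher (right) and lower (left) in Trrap-FBΔ mice, in percent, for all genes, the Rab genes and 4 lists of Rab regulators and effectors, in the cortex and in the striatum. The Rab genes stand at 16.4% higher and 23.6% lower in the cortex and at 14% and 21.1% in the striatum, beside 15.7% and 17.6% and 14.4% and 15.8% of all genes.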

How the data were processed

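RNA-seq libraries were stranded and polyA-selected, with 51-base single-end reads. The authors aligned them to GRCm38 with STAR 2.5.4b, counted unique reads on Ensembl 92 genes with featureCounts 1.5.0, and deposited raw counts without normalization. Symbols, coordinates and exon lengths came from GENCODE M21 (53706 of 53801 identifiers). edgeR 4.0.16 (R 4.3.3; filterByExpr, TMM, quasi-likelihood test) was fitted over all genes, and adjusted p-values are Benjamini-Hochberg values over all genes tested. Genotype was tested per tissue (4 against 4), its difference between tissues over 16 libraries, and tissue within controls. CPM use TMM factors. RPKM divide CPM by exon length. Steps were tested on simulated data.

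Values per library are given for Rab26, Rab37, members called in both tissues, in 1 tissue with a log2 fold change of at least 0.4, or by interaction, the 3 largest tissue differences each way above 50 mean counts, and the 3 most abundant members. Members and lists were chosen with earlier results of these data known. Alternatives were DESeq2 1.42.0, other scalings and filters, sex or mouse in the fit, 1 joint fit, and leaving out libraries. Libraries of 1 mouse shared deviations (r 0.0845 to 0.244 in 7 pairs, 6 over 0.1, against -0.173 to 0.123 in 25 pairs of different mice). No libraries were duplicates (chi-square per degree of freedom 8.26 to 44.6 in 24 pairs). Stretches of 51 bases were compared over all GENCODE transcripts; 29 of 59 members shared none and 15 shared over 5%. Some genes of the lists are not reported here by name.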

Additional observations from a re-analysis of the deposited data

Results flagged for a closer look

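In 4 of the 84 groups of 4 libraries examined, 1 library stood apart from the other 3 by more than the limit for such a group, and chance alone flags about 1 in 20 groups. Rab26 in the control striatum was lowest in mouse 64, at 19.8 CPM, where the others had 22.6 to 23.2 CPM. Rab6a in the Trrap-FBΔ cortex was lowest in mouse 61, at 465 CPM, where the others had 512 to 520 CPM. Rab9 in the control striatum was highest in mouse 63, at 39.1 CPM, where the others had 32.1 to 32.2 CPM. Rab15 in the Trrap-FBΔ cortex was highest in mouse 57, at 274 CPM, where the others had 259 to 260 CPM.

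The effect of the genotype differed between the tissues for Rab26, by -0.84 on the log2 scale (striatum minus cortex, edgeR adjusted p = 0.0169), and for Rab3d, by -0.67 (edgeR adjusted p = 0.032). Both calls were lost without mouse 58, 59, 61 or 63, and without the 4 control libraries that stood apart. Rab26 was higher in 4 of 4 Trrap-FBΔ libraries than in every control of its tissue, and Rab3d was lower in 4 of 4 Trrap-FBΔ striata than in every control striatum.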

How the results depend on the processing

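No called member changed sign under the alternatives run, but under upper-quartile normalization the members changed in both tissues turned from 4 higher and 8 lower to 7 higher and 6 lower, and the median cortical log2 fold change of the members from -0.014 to 0.0042. Without the 4 control libraries set apart above (chosen after seeing the data), the number of DEGs was 13 in the cortex (5 higher, 8 lower) and 5 higher in the striatum, 0 for the interaction (8 at an unadjusted p under 0.05, by edgeR), 12 between the control tissues (6 higher, 6 lower) and 4 lower in both tissues. DESeq2 gave 4 interactions, and sex as a covariate 5 lower in both. Leaving out 1 library or mouse at a time gave 16 to 20 DEGs in the cortex (7 to 9 higher, 9 to 12 lower), 12 to 23 in the striatum (5 to 10 higher, 7 to 13 lower), 0 to 2 interactions, 21 to 28 tissue differences (10 to 13 higher, 11 to 16 lower), 4 to 5 members higher in both tissues and 4 to 9 lower in both. The striatal low of 12, with 5 higher and 7 lower, and 4 lower in both came without the Trrap-FBΔ mouse 57. Without mouse 60 there were also 5 higher in the striatum, and without mouse 61 there were 5 lower in both. The interaction gave 1 without mouse 57 or 64 and 0 without mouse 58, 59, 61 or 63, with 7 or 8 members at an unadjusted p under 0.05 in those edgeR fits. The cause of these shifts was not tested. With the mouse as a replicate block, the interaction kept a count of 2 and the tissue comparison gave 24 (11 higher, 13 lower), and the block moved no count by over 1.5 times. No paired analysis was possible because the genotypes share no mouse within a tissue. Calls held under each alternative other than the 4 control libraries for 13 of 22 members in the cortex, 12 of 20 in the striatum, 19 of 27 between tissues and 0 of 2 for the interaction. With at most 6 reads per library, Rab17 and Rab19 were not measurable at this depth.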
